A study of Homo sapiens with 14 samples.

Results

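The 7 vehicle arrays of the series, of 14 arrays in all, were compared between T-cell acute lymphoblastic leukemia (T-ALL) lines that differ in their sensitivity to prednisolone. The lines P12-ICHIKAWA, ALL-SIL and TALL-1 formed the sensitive group (n = 3), with a prednisolone IC50 under 50 µg/mL in the study's drug measurements, and CCRF-CEM, HPB-ALL, Jurkat and Molt-4 formed the resistant group (n = 4), with an IC50 over 100 µg/mL. No expression value was used to form the groups. All 7 lines are established human T-ALL lines, and all had been kept in vehicle for 6 h before RNA was taken. No array of the series was made after prednisolone, so the values describe the lines at baseline. The other 7 arrays, of the same lines after 6 h with the PI3K inhibitor AS605240 at each line's IC50, served only as a second array of each line and not as replicates. Daunorubicin IC50 values divided the lines into the same 3 and 4, so that sensitivity to prednisolone and sensitivity to daunorubicin cannot be told apart here.

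Prednisolone is a synthetic glucocorticoid. It binds the glucocorticoid receptor (encoded by NR3C1), which is held ready by HSP90 and its cochaperones in the cytoplasm and, once bound, moves to the nucleus and switches on genes such as TSC22D3 and FKBP5. In lymphoid cells this leads to cell cycle arrest and to death through the BCL2 family, in which BCL2L11 (BIM) promotes and BCL2, BCL2L1 and MCL1 restrain apoptosis. Receptor loss, PI3K/AKT, IL7R/JAK-STAT and Notch signaling, metabolism and chromatin regulators are all known subjects of work on glucocorticoid resistance in T-ALL.

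Levels are given on a log2 scale after 16 was added to the deposited signal, so that a signal of 0 would read as 4 and differences between dim genes are compressed. Each gene was read from 1 probe set, and differences are sensitive minus resistant. In such bulk RNA a lower level per cell and fewer expressing cells cannot be told apart. Between 31.7% (ALL-SIL) and 33.8% (CCRF-CEM) of all probe sets had a signal over 50. T-cell markers were present in all lines, with 10 or 11 of 11 measured markers over a signal of 50, and their mean level ranged from 8.97 to 10.27 in the resistant and from 9.49 to 9.86 in the sensitive lines. CD3E, a chain of the T-cell receptor complex, read 10.04 to 10.39 in the resistant and 9.92 to 10.30 in the sensitive lines. Markers of B cells (9 genes, summed signal 73.8 to 435.8 in resistant and 372.8 to 452.9 in sensitive lines), myeloid cells (11 genes, 208.5 to 358.4 and 212.9 to 275.1), erythroid and megakaryocytic cells (7 genes, 236.2 to 268.5 and 275.4 to 333) and epithelial cells and fibroblasts (11 genes, 470.7 to 884.7 and 339.2 to 624.2) were low beside the summed signal of the T-cell markers, which was at least 9595.

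Among the lines, P12-ICHIKAWA and TALL-1 stood apart as a nearly identical pair. Their levels correlated at r = 0.994 across genes, which are not independent replicates, and 2 genes of 19775 differed by more than 4-fold. The other 20 pairs of lines correlated at 0.908 to 0.953. ALL-SIL, the remaining sensitive line, differed by more than 4-fold from P12-ICHIKAWA in 618 genes and from TALL-1 in 605, while P12-ICHIKAWA differed from Jurkat, a resistant line, in 493. The 12 pairs of a sensitive and a resistant line differed in 466 to 850 genes, and the 6 pairs of resistant lines in 331 (Jurkat and Molt-4) to 767 (HPB-ALL and Jurkat). By this count P12-ICHIKAWA and TALL-1 were nearer to CCRF-CEM, Jurkat and Molt-4 than to ALL-SIL. The sensitive group thus holds 3 arrays but fewer distinct expression profiles. P12-ICHIKAWA and TALL-1 may not be independent lines, which was not tested. Each comparison was therefore made again with P12-ICHIKAWA and TALL-1 averaged into 1 line.

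**Figure D1:**
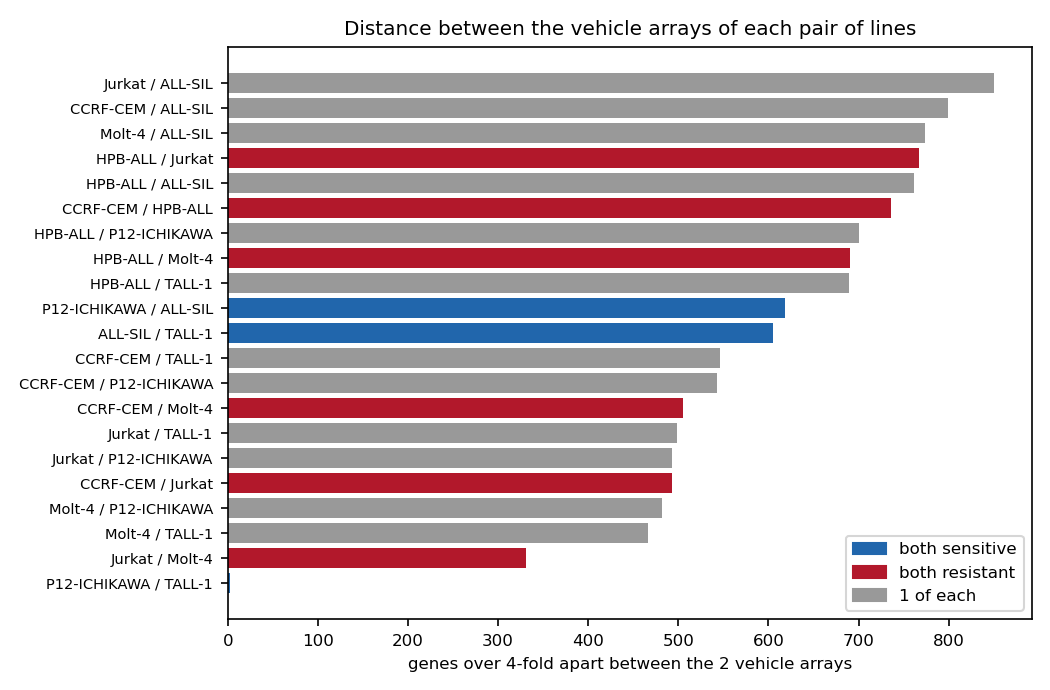
Genes that differ by more than 4-fold between the vehicle arrays of each pair of lines (x axis, number of genes of 19775), with 1 bar per pair. P12-ICHIKAWA and TALL-1 differ in 2 genes, whereas ALL-SIL differs from these 2 lines in 618 and 605 genes, within the range of the sensitive and resistant pairs (466 to 850).

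Of 19775 genes, 24 (0.121%) passed the test between the 3 sensitive and 4 resistant lines (limma, Benjamini-Hochberg adjusted p under 0.05), 4 higher (0.0202%) and 20 lower (0.101%) in the sensitive lines. Centring each array on its median gave 9 higher and 21 lower. All 24 differed by more than 1.5-fold, and in all 24 the groups did not overlap. In 15 of the 20 lower genes every sensitive line read a signal of 50 or less, and in 3 of the 4 higher genes every resistant line did. On the AS605240 arrays of the same lines the groups did not overlap, in the same direction, for all 24 genes, and 19 of them passed the test. With P12-ICHIKAWA and TALL-1 averaged, 3 genes passed, TRDV3, DSG2 and PHKA1, and these 3 were among the 24. Without P12-ICHIKAWA 1 gene was higher and 2 were lower, without TALL-1 2 and 2, without HPB-ALL 94 and 163, without ALL-SIL 42 and 99, without CCRF-CEM 2 and 17, without Molt-4 2 and 16, and without Jurkat 5 and 11.

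**Figure D2:**
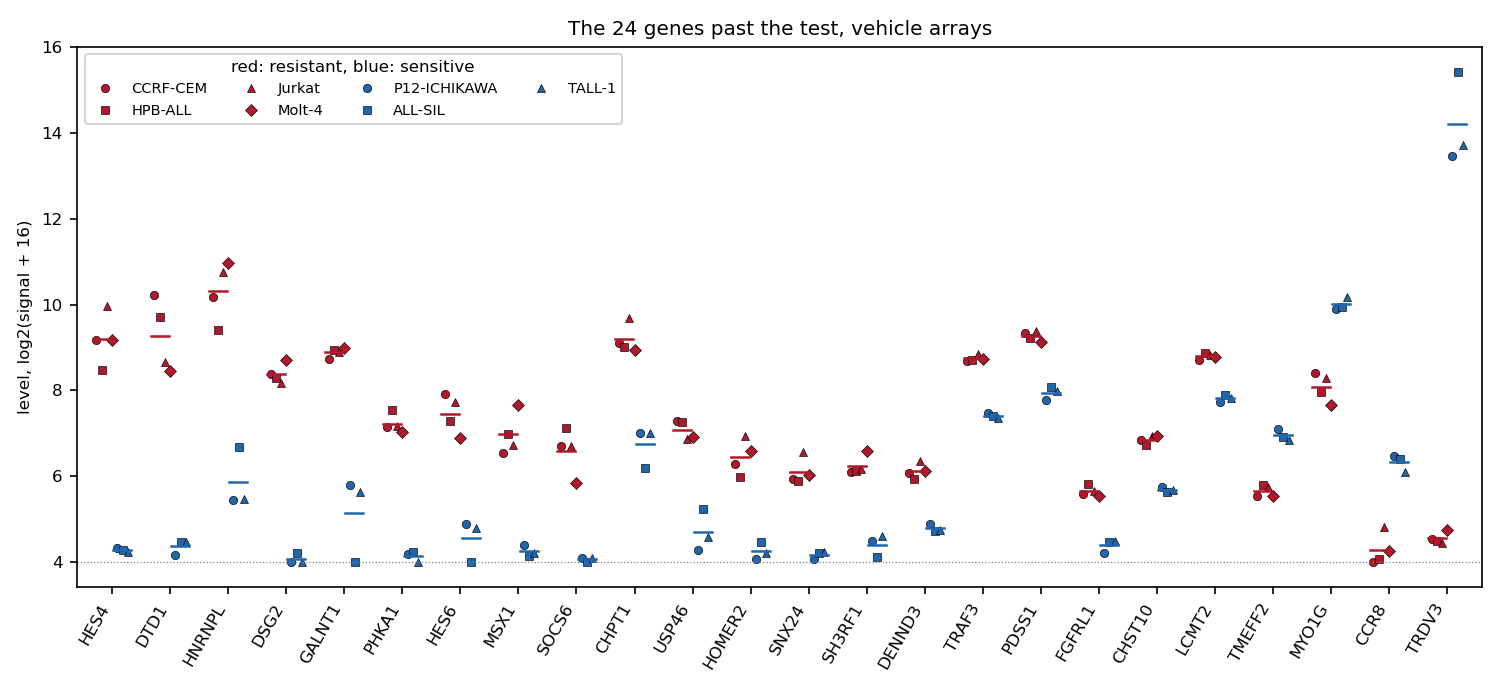
Level (y axis, log2 of signal + 16) of the 24 genes that passed the test, in each vehicle array. Points are lines (red resistant, n = 4, blue sensitive, n = 3), short bars are group means and the dotted line is the level of a signal of 0. The 20 lower genes stand left and the 4 higher genes right, and no red and blue points of a gene overlap.

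Among the lower genes was HES4, a basic helix-loop-helix repressor and Notch target. It read 9.17 in CCRF-CEM, 8.47 in HPB-ALL, 9.96 in Jurkat and 9.17 in Molt-4, against 4.32 in P12-ICHIKAWA, 4.28 in ALL-SIL and 4.23 in TALL-1. It was at least 4 log2 units higher in each resistant line than in any sensitive line, all of which lay near the level of no signal. The difference was -4.92 ± 0.32 (SE), 30.2-fold, with an adjusted p of 0.00761, and 0.103 with the near-identical pair averaged. HES6, of the same family and known to counter HES1, read 7.92 in CCRF-CEM, 7.28 in HPB-ALL, 7.74 in Jurkat and 6.89 in Molt-4. It read 4.88 in P12-ICHIKAWA, 4.0 in ALL-SIL and 4.79 in TALL-1. The difference was -2.90 ± 0.32 (limma, adjusted p = 0.0459, and 0.234 with the pair averaged). HES6 was low in all sensitive lines and did not overlap, with a single probe set as for HES4. The 250 bases upstream of the start of each of these 2 genes are shown because they are the members of 1 family that passed the test together. Neither passed with the pair averaged. They are from RefSeq on GRCh38.p14, for HES4 chr1:1000098-1000347 and for HES6 chr2:238240039-238240288, both on the minus strand and written 5′ to 3′ along the gene. Capitals mark TGGGAA, the core of the site read by RBPJ, the DNA-binding partner of Notch, which was searched on both strands.
HES4: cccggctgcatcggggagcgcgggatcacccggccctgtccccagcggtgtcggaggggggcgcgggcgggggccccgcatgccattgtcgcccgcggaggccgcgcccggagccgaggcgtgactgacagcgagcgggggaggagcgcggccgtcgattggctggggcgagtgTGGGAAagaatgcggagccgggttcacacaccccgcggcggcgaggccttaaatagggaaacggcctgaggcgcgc
HES6: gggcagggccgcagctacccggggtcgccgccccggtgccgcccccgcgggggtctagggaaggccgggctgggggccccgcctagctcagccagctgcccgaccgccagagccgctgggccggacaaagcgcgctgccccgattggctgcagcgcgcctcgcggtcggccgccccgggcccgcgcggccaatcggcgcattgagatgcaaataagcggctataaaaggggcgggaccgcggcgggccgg
The HES4 stretch holds TGGGAA as written, with its first base 76 bases before the start, and the HES6 stretch does not hold it on either strand. Of 35116 RefSeq promoters of this length 20.8% hold it, as do 5 of the 21 genes past the test for which a promoter was listed. A match is a run of letters and was not tested as a site.

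The other measured members of the Notch list did not follow HES4. Of 29 genes, HES4 was the 1 that passed, 3 had an unadjusted p under 0.05 (14.6% of all genes did), and the median difference was -0.12, against -0.03 over all genes. NOTCH1, the receptor most often mutated in T-ALL, read 9.25 in CCRF-CEM, 9.56 in HPB-ALL, 8.60 in Jurkat and 9.25 in Molt-4, against 8.47 in P12-ICHIKAWA, 9.90 in ALL-SIL and 8.16 in TALL-1. ALL-SIL had the highest and TALL-1 the lowest level of all 7 lines, so that the group difference was -0.32 ± 0.44 (adjusted p = 0.762). NOTCH3 read 6.65 in CCRF-CEM, 8.36 in HPB-ALL, 7.70 in Jurkat and 8.52 in Molt-4, against 5.90 in P12-ICHIKAWA, 7.36 in ALL-SIL and 5.51 in TALL-1, and ALL-SIL overlapped the resistant lines (-1.55 ± 0.59, adjusted p = 0.314). NRARP, a Notch target that limits Notch signaling, differed by -0.42 ± 0.17 at a signal under 50 in all lines (adjusted p = 0.343).

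The remaining lower genes were of many kinds. DSG2, a desmosomal cadherin, had the smallest p of all genes and read 8.39 in CCRF-CEM, 8.28 in HPB-ALL, 8.18 in Jurkat and 8.72 in Molt-4, against 4.0 in P12-ICHIKAWA, 4.22 in ALL-SIL and 4.0 in TALL-1, a 20-fold difference (-4.32 ± 0.15, adjusted p = 0.000527). Its sensitive lines lay at or just above the level of no signal, and the second DSG2 probe set also did not overlap. With the pair averaged the difference was -4.28 (adjusted p = 0.0157). PHKA1, a regulatory subunit of phosphorylase kinase, which starts glycogen breakdown, read 7.14 in CCRF-CEM, 7.54 in HPB-ALL, 7.18 in Jurkat and 7.03 in Molt-4, against 4.18 in P12-ICHIKAWA, 4.23 in ALL-SIL and 4.0 in TALL-1 (-3.08 ± 0.15, adjusted p = 0.0013, and 0.0238 with the pair averaged). The resistant lines lay close together and all sensitive lines near no signal.

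HNRNPL, a splicing regulator that acts on CD45 pre-mRNA in T cells, read 10.17 in CCRF-CEM, 9.40 in HPB-ALL, 10.75 in Jurkat and 10.96 in Molt-4, against 5.46 in P12-ICHIKAWA, 6.68 in ALL-SIL and 5.48 in TALL-1. The sensitive lines were lower by -4.45 ± 0.47 (adjusted p = 0.0387, and 0.268 with the pair averaged), with ALL-SIL above the other sensitive lines, and both HNRNPL probe sets had this pattern. DTD1, a D-aminoacyl-tRNA deacylase, read 10.22 in CCRF-CEM, 9.71 in HPB-ALL, 8.66 in Jurkat and 8.46 in Molt-4, against 4.17 in P12-ICHIKAWA, 4.46 in ALL-SIL and 4.47 in TALL-1 and differed by -4.90 ± 0.44 (adjusted p = 0.0278). Its second probe set was dim, from 5.28 to 5.59 in all lines, and did not differ (-0.02). GALNT1, which starts mucin-type O-glycosylation, read 8.73 in CCRF-CEM, 8.95 in HPB-ALL, 8.90 in Jurkat and 8.98 in Molt-4, against 5.79 in P12-ICHIKAWA, 4.0 in ALL-SIL and 5.63 in TALL-1 (-3.75 ± 0.42, adjusted p = 0.0474), and 4 of its 5 probe sets did not overlap. ALL-SIL was at the level of no signal and the other sensitive lines lay between it and the resistant lines.

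MSX1, a homeobox repressor, differed by -2.73 ± 0.26, SOCS6, of the suppressor of cytokine signaling family, by -2.53 ± 0.28, and CHPT1, an enzyme of phosphatidylcholine synthesis, by -2.44 ± 0.28. The other genes within the naming rule were USP46, a deubiquitinase (-2.38 ± 0.24), HOMER2, a scaffold protein (-2.20 ± 0.24), SNX24, a sorting nexin (-1.93 ± 0.18), SH3RF1, a JNK pathway scaffold (-1.84 ± 0.17), and DENND3, a Rab activator (-1.34 ± 0.13). Their adjusted p ranged from 0.0278 to 0.0474. With the pair averaged it ranged from 0.2085 to 0.2971 (limma). Of these 8 genes only CHPT1 exceeded a signal of 50 in all 7 lines, and SNX24 exceeded it in 1 line. Of the 5 SNX24 probe sets 2 did not overlap and 1 had the opposite sign. Averaging them gave -0.71 (limma, adjusted p = 0.0548).

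The other 5 lower genes lay outside the naming rule and were named after their values were seen. TRAF3, an adaptor that restrains non-canonical NF-κB signaling, read 8.68 in CCRF-CEM, 8.72 in HPB-ALL, 8.86 in Jurkat and 8.73 in Molt-4, against 7.47 in P12-ICHIKAWA, 7.40 in ALL-SIL and 7.37 in TALL-1. Both groups were bright and tight, and the difference of -1.33 ± 0.092 was 2.52-fold (adjusted p = 0.00901, and 0.103 with the pair averaged). PDSS1, which makes the side chain of coenzyme Q, read 9.35 in CCRF-CEM, 9.23 in HPB-ALL, 9.38 in Jurkat and 9.12 in Molt-4, against 7.79 in P12-ICHIKAWA, 8.09 in ALL-SIL and 7.98 in TALL-1 (-1.32 ± 0.12, adjusted p = 0.0278). Its second probe set had the opposite sign, and averaging both gave -0.58 (limma, adjusted p = 0.0789). LCMT2, a tRNA-modifying enzyme, differed by -0.98 ± 0.095, CHST10, a sulfotransferase, by -1.16 ± 0.098, and FGFRL1, an FGF receptor without a kinase domain, by -1.26 ± 0.12. The second LCMT2 probe set also had the opposite sign, and averaging both gave -0.43 (limma, adjusted p = 0.123). FGFRL1 did not exceed a signal of 50 in any line.

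Among the genes higher in the sensitive lines, the largest difference was at a T-cell receptor gene. The brightest probe set assigned to TRDV3, a variable segment of the T-cell receptor delta chain, read 4.53 in CCRF-CEM, 4.49 in HPB-ALL, 4.45 in Jurkat and 4.74 in Molt-4, against 13.46 in P12-ICHIKAWA, 15.43 in ALL-SIL and 13.73 in TALL-1. It was near the level of no signal in all resistant lines and very bright in all sensitive lines, 9.65 ± 0.45 apart (adjusted p = 0.0013, and 0.0157 with the pair averaged). The second TRDV3 probe set read 4.50 to 4.84 in all 7 lines, so the 2 probe sets disagree and the gene behind the signal is uncertain. Some probe sets name TRGC2, a gamma chain constant gene, together with other genes. These probe sets were highest in HPB-ALL (11.7 to 12.4) and ALL-SIL (12.1 to 12.6), and lowest in Molt-4 (4.36 to 4.75). They read 8.18 to 8.96 in CCRF-CEM and 5.99 to 6.75 in Jurkat, against 8.99 to 9.71 in P12-ICHIKAWA and 9.08 to 9.83 in TALL-1. On each of them all sensitive lines were above CCRF-CEM, Jurkat and Molt-4, and HPB-ALL was the only resistant line to overlap. TRBC1, a constant gene of the beta chain named after its values were seen, read 12.22 in CCRF-CEM, 12.51 in HPB-ALL, 12.25 in Jurkat and 12.14 in Molt-4, against 12.40 in P12-ICHIKAWA, 9.09 in ALL-SIL and 12.54 in TALL-1, and ALL-SIL alone was low. The beta chain signal thus set ALL-SIL apart and did not follow the prednisolone groups. The gamma chain signal was higher in the sensitive lines than in all resistant lines but HPB-ALL.

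MYO1G, a myosin of the lymphocyte membrane, read 8.41 in CCRF-CEM, 7.97 in HPB-ALL, 8.29 in Jurkat and 7.66 in Molt-4, against 9.91 in P12-ICHIKAWA, 9.95 in ALL-SIL and 10.18 in TALL-1, 3.8-fold higher in the sensitive lines (1.93 ± 0.20, adjusted p = 0.0354). It was bright in all lines, and its second probe set did not overlap either. CCR8, a chemokine receptor, read 4.0 in CCRF-CEM, 4.08 in HPB-ALL, 4.83 in Jurkat and 4.27 in Molt-4, against 6.48 in P12-ICHIKAWA, 6.41 in ALL-SIL and 6.11 in TALL-1 (2.04 ± 0.22, adjusted p = 0.0454), over a signal of 50 in the sensitive lines only. TMEFF2, a transmembrane protein with a single EGF-like domain, read 5.55 in CCRF-CEM, 5.80 in HPB-ALL, 5.75 in Jurkat and 5.54 in Molt-4. It read 7.11 in P12-ICHIKAWA, 6.91 in ALL-SIL and 6.84 in TALL-1 (1.29 ± 0.12, limma, adjusted p = 0.0278). However, only 1 of its 3 probe sets had groups that did not overlap, and 1 had the opposite sign. Averaging its probe sets gave 0.36 (limma, adjusted p = 0.162). MYO1G, CCR8 and TMEFF2 did not pass with the pair averaged (limma, adjusted p = 0.234, 0.234 and 0.208).

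The next 11 genes by p whose groups did not overlap in that direction, which the naming rule added, did not pass the test (adjusted p = 0.0567 to 0.0771, and 0.263 to 0.352 with the pair averaged). LSP1, an actin-binding protein of lymphocytes, read 6.28 in CCRF-CEM, 4.05 in HPB-ALL, 5.4 in Jurkat and 6.27 in Molt-4, against 10.11 in P12-ICHIKAWA, 9.75 in ALL-SIL and 9.57 in TALL-1, a difference of 4.31 ± 0.55. CD96, a receptor of T and NK cells, read 4.69 in CCRF-CEM, 5.25 in HPB-ALL, 6.55 in Jurkat and 4.36 in Molt-4, against 9.16 in P12-ICHIKAWA, 8.56 in ALL-SIL and 9.18 in TALL-1 (3.76 ± 0.52). In both genes each sensitive line was at least 2 log2 units above each resistant line. LST1, of leukocytes, differed by 2.44 ± 0.33 with all 6 of its probe sets free of overlap, and VEGFC, a lymphangiogenic growth factor, by 2.19 ± 0.27. Beside PIK3R5 the others included LTBR, a receptor upstream of non-canonical NF-κB (1.27 ± 0.16), and NFKBID, an IκB protein of the nucleus (0.80 ± 0.10). BTN3A1, a butyrophilin (0.93 ± 0.13), CHD9, a chromatin remodeler (1.21 ± 0.15), USP4, a deubiquitinase (0.83 ± 0.11), and the non-coding LINC00662 (0.90 ± 0.13) made up the rest. LTBR, USP4, LINC00662 and PIK3R5 each had 1 probe set of the opposite sign, CHD9 had 2 of 7, and NFKBID and BTN3A1 had none. Averaging all probe sets gave 0.45 for LTBR and 0.55 for CHD9 (limma, adjusted p = 0.221 and 0.227).

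Beyond the test, the groups did not overlap and differed by more than 2-fold in 176 genes higher (0.89%) and 331 genes lower (1.67%) in the sensitive lines. With no limit on the fold the counts were 1277 (6.46%) and 1654 (8.36%). These counts are a description, since 3 lines against 4 allow no exact two-sided p below 0.0571 for a single gene. Of the 507 genes past 2-fold, 411 also did not overlap in the same direction on the AS605240 arrays, which come from the same lines. An unadjusted limma p under 0.05 was found in 2880 genes (14.6%), the share to set beside the count of each gene list.

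The glucocorticoid receptor overlapped between the groups on the vehicle arrays. NR3C1 read 10.18 in CCRF-CEM, 10.05 in HPB-ALL, 8.52 in Jurkat and 8.31 in Molt-4, against 10.02 in P12-ICHIKAWA, 9.73 in ALL-SIL and 9.90 in TALL-1. Jurkat and Molt-4 were lower than the other 5 lines, whereas CCRF-CEM and HPB-ALL, also resistant, had the highest levels of all 7 lines on this probe set. The group difference was 0.62 ± 0.51 with a 95% interval of -0.59 to 1.83 (adjusted p = 0.608), and the interval was -0.98 to 2.15 with the pair averaged. The groups overlapped in all 5 NR3C1 probe sets. Jurkat and Molt-4 were the lowest lines on each of them, and the order of the other lines differed. On the AS605240 arrays NR3C1 read 8.48 to 10.15 in the resistant and 10.24 to 10.26 in the sensitive lines, without overlap, and the difference of 0.94 did not pass the test (adjusted p = 0.353). The study, citing the COSMIC database, reports NR3C1 missense mutations in CCRF-CEM, Jurkat and Molt-4 and no alterations in P12-ICHIKAWA and TALL-1. It describes those of CCRF-CEM and Jurkat as associated with defective receptors. The RNA levels here do not show receptor function. None of the 25 measured genes of the receptor and its cochaperones passed limma's test, 3 had an unadjusted p under 0.05, and their median difference was -0.02. HSPA4, an HSP70 family chaperone, was the 1 member without overlap (-0.67 ± 0.24, adjusted p = 0.289). FKBP4, an HSP90 cochaperone that favors receptor activity, differed by -0.94 ± 0.40 and NR2F6, an orphan nuclear receptor, by -0.65 ± 0.23, both with overlap.

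Basal levels of glucocorticoid-induced genes were mixed. None of the 36 measured genes passed limma's test, 5 had an unadjusted p under 0.05, and the median difference was 0.11. TSC22D3 (GILZ), a direct target of the receptor, read 8.81 in CCRF-CEM, 7.24 in HPB-ALL, 4.99 in Jurkat and 4.22 in Molt-4, against 6.33 in P12-ICHIKAWA, 5.50 in ALL-SIL and 5.67 in TALL-1. The resistant lines alone spanned more than the sensitive lines, from the highest in CCRF-CEM to the lowest in Molt-4 (-0.48 ± 1.08, adjusted p = 0.86), and the sign turned without CCRF-CEM (0.35). FKBP5, a cochaperone that the receptor induces and that limits it, read 10.08 in CCRF-CEM, 9.77 in HPB-ALL, 9.40 in Jurkat and 10.22 in Molt-4, against 10.39 in P12-ICHIKAWA, 10.91 in ALL-SIL and 10.08 in TALL-1 (0.60 ± 0.26, adjusted p = 0.359). DUSP1, a phosphatase of MAP kinases, read 6.55 in CCRF-CEM, 8.11 in HPB-ALL, 7.30 in Jurkat and 6.72 in Molt-4, against 5.28 in P12-ICHIKAWA, 5.37 in ALL-SIL and 5.57 in TALL-1 and did not overlap (-1.76 ± 0.37, adjusted p = 0.143). DDIT4, an inhibitor of mTORC1, read 10.92 in CCRF-CEM, 10.01 in HPB-ALL, 9.97 in Jurkat and 10.13 in Molt-4, against 11.41 in P12-ICHIKAWA, 10.96 in ALL-SIL and 11.11 in TALL-1, with the sensitive lines above (0.90 ± 0.26, adjusted p = 0.234), though CCRF-CEM and ALL-SIL were next to each other. FOXO3, a transcription factor held in check by AKT, differed by 0.53 ± 0.17 without overlap in all 4 of its probe sets (adjusted p = 0.265).

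**Figure D3:**
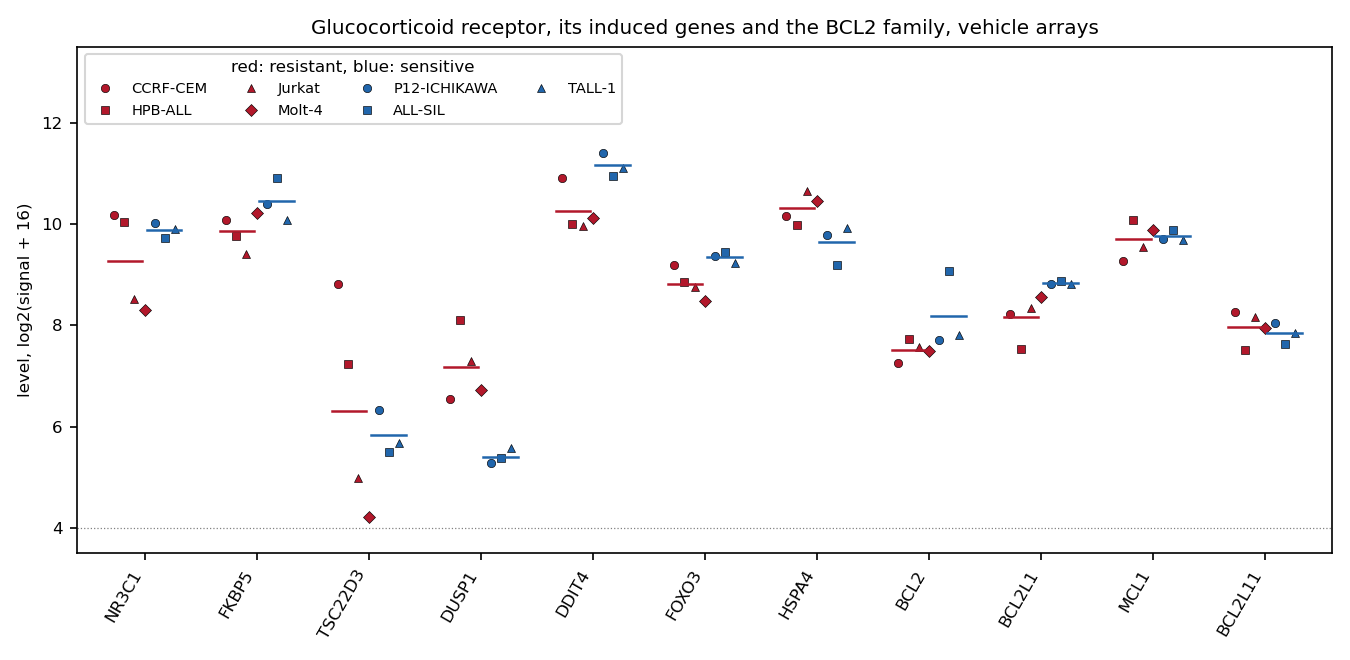
Level (y axis, log2 of signal + 16) of the glucocorticoid receptor NR3C1, genes it induces, the chaperone HSPA4 and BCL2 family genes in each vehicle array. Points are lines (red resistant, n = 4, blue sensitive, n = 3), short bars are group means and the dotted line is the level of a signal of 0. NR3C1 is low in Jurkat (8.52) and Molt-4 (8.31) but not in CCRF-CEM (10.18) or HPB-ALL (10.05), and DUSP1, DDIT4, FOXO3, HSPA4 and BCL2L1 are the genes without overlap.

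None of the 21 measured BCL2 family genes passed limma's test, 3 had an unadjusted p under 0.05, and the median difference was 0.04. BCL2L1 (BCL-XL) read 8.23 in CCRF-CEM, 7.54 in HPB-ALL, 8.34 in Jurkat and 8.55 in Molt-4, against 8.81 in P12-ICHIKAWA, 8.88 in ALL-SIL and 8.81 in TALL-1. All sensitive lines were higher than all resistant lines, by 0.67 ± 0.24 (adjusted p = 0.292), for a gene that restrains apoptosis. BCL2 read 7.26 in CCRF-CEM, 7.72 in HPB-ALL, 7.57 in Jurkat and 7.50 in Molt-4, against 7.71 in P12-ICHIKAWA, 9.07 in ALL-SIL and 7.80 in TALL-1, and ALL-SIL stood above the other 6 lines (0.68 ± 0.34, adjusted p = 0.403). BCL2L11 differed by -0.13 with a 95% interval of -0.62 to 0.36, and MCL1 by 0.065 with an interval of -0.42 to 0.55. Both groups overlapped in these 2 genes, and the sign of each turned when all probe sets of the gene were averaged (0.017 and -0.19). BAD (-0.56 ± 0.21), a BH3-only protein, overlapped, and BCL2L13 (-0.48 ± 0.19) did not.

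In the PI3K and AKT pathway, none of 35 measured genes passed limma's test and 9 had an unadjusted p under 0.05 (14.6% of all genes did). The groups did not overlap in 4 genes higher (11.4%, against 6.46% of all genes) and 3 lower (8.57%, against 8.36%), and the median difference was 0.02. PIK3R5, the p101 regulatory subunit of PI3Kγ, read 6.04 in CCRF-CEM, 4.99 in HPB-ALL, 5.60 in Jurkat and 5.50 in Molt-4, against 7.63 in P12-ICHIKAWA, 7.27 in ALL-SIL and 7.78 in TALL-1. It was higher in each sensitive line, by 2.03 ± 0.26 (adjusted p = 0.0567, and 0.341 with the pair averaged), and 2 of its 3 probe sets did not overlap. PIK3CG, the catalytic subunit that pairs with it, read 8.01 in CCRF-CEM, 8.03 in HPB-ALL, 7.56 in Jurkat and 8.72 in Molt-4, against 7.98 in P12-ICHIKAWA, 8.52 in ALL-SIL and 8.01 in TALL-1, with a difference of 0.09 and a 95% interval of -0.59 to 0.77. Its sign turned without Jurkat, without ALL-SIL and with all its probe sets averaged. PIK3CD, the catalytic subunit of PI3Kδ, read 7.27 in CCRF-CEM, 7.16 in HPB-ALL, 7.30 in Jurkat and 7.36 in Molt-4, against 8.18 in P12-ICHIKAWA, 9.84 in ALL-SIL and 8.16 in TALL-1. The resistant lines were within 0.20 log2 units of each other, and ALL-SIL was well above P12-ICHIKAWA and TALL-1 (1.46 ± 0.41, adjusted p = 0.227). PIK3CB, of PI3Kβ, differed by 0.44 ± 0.15, and not with its probe sets averaged (-0.038). AKT1 was lower in all sensitive lines (-0.52 ± 0.15, adjusted p = 0.236). PIK3R3, a regulatory subunit of class IA enzymes named after its values were seen, was lower too (-1.02 ± 0.36, adjusted p = 0.293).

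The IL7R and JAK-STAT list had members of both signs without overlap, 4 of 30 higher (13.3%, against 6.46% of all genes) and 3 lower (10%, against 8.36%). None of the 30 passed limma's test (5 with an unadjusted p under 0.05, median difference 0.17, and -0.17 without ALL-SIL). STAT3 read 8.73 in CCRF-CEM, 9.04 in HPB-ALL, 8.43 in Jurkat and 9.59 in Molt-4, against 10.23 in P12-ICHIKAWA, 9.71 in ALL-SIL and 10.25 in TALL-1 (1.12 ± 0.29, adjusted p = 0.2) and STAT5B read 9.30 in CCRF-CEM, 9.26 in HPB-ALL, 8.03 in Jurkat and 8.26 in Molt-4, against 9.84 in P12-ICHIKAWA, 9.54 in ALL-SIL and 9.73 in TALL-1 (0.99 ± 0.35, adjusted p = 0.293). STAT4 read 4.36 in CCRF-CEM, 5.41 in HPB-ALL, 5.31 in Jurkat and 4.47 in Molt-4, against 5.86 in P12-ICHIKAWA, 8.67 in ALL-SIL and 6.04 in TALL-1, and its difference of 1.97 ± 0.71 did not pass, with ALL-SIL the 1 line with a signal over 50. These genes and STAT5A (1.80) were the 4 higher members. The groups did not overlap on 2 of 4 STAT3 probe sets, and 1 of the 4 had the opposite sign. For STAT5B they did not overlap on 1 of 5. Averaging all probe sets gave 0.47 for STAT3 and 0.64 for STAT5B (limma, adjusted p = 0.48 and 0.346). The 3 lower members, named after their values were seen, were the kinase PIM3 (-2.26), the cytokine receptor chain IL6ST (-1.54) and the phosphatase PTPN2 (-0.34). IL7R, the receptor of interleukin 7, read 5.82 in CCRF-CEM, 10.08 in HPB-ALL, 6.60 in Jurkat and 4.01 in Molt-4, against 4.29 in P12-ICHIKAWA, 4.07 in ALL-SIL and 4.39 in TALL-1. HPB-ALL alone was bright, the sensitive lines and Molt-4 were near no signal, and the difference of -2.38 ± 1.29 did not pass (adjusted p = 0.44).

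Genes of ERK output had differences of both signs. None of 29 passed limma's test, 7 had an unadjusted p under 0.05 and the median was 0.04. SPRY2, an inhibitor of receptor tyrosine kinase signaling, read 6.11 in CCRF-CEM, 7.14 in HPB-ALL, 6.65 in Jurkat and 6.38 in Molt-4, against 4.46 in P12-ICHIKAWA, 4.25 in ALL-SIL and 4.78 in TALL-1 (-2.08 ± 0.26, adjusted p = 0.0567). All sensitive lines were near no signal. JUND, a subunit of AP-1, read 9.27 in CCRF-CEM, 10.31 in HPB-ALL, 9.51 in Jurkat and 10.02 in Molt-4, against 11.23 in P12-ICHIKAWA, 11.53 in ALL-SIL and 10.98 in TALL-1 and was higher in the sensitive lines (1.47 ± 0.28, adjusted p = 0.121). DUSP6, an ERK phosphatase named after its values were seen, read 8.11 in CCRF-CEM, 6.36 in HPB-ALL, 5.55 in Jurkat and 7.17 in Molt-4, against 8.23 in P12-ICHIKAWA, 12.21 in ALL-SIL and 8.49 in TALL-1, with ALL-SIL far above the others and CCRF-CEM close to P12-ICHIKAWA.

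**Figure D4:**
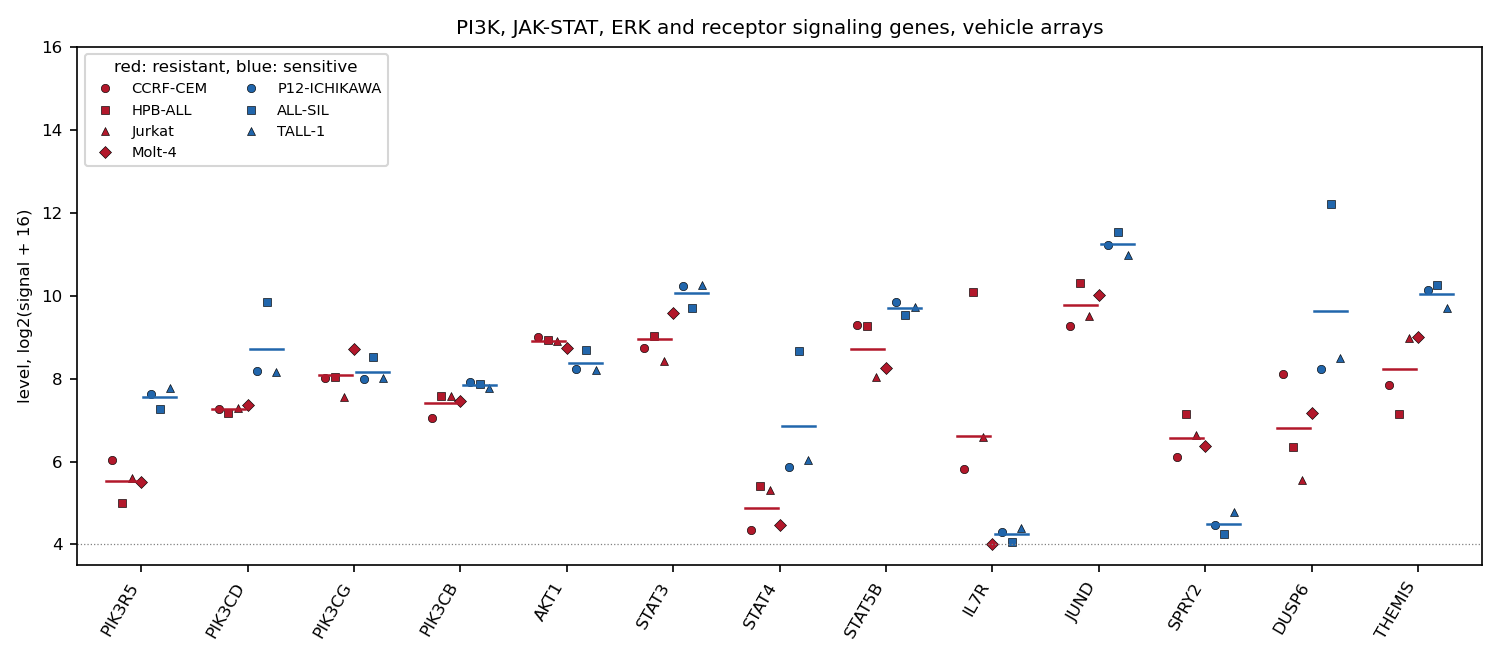
Level (y axis, log2 of signal + 16) of PI3K, AKT, STAT, IL7R, ERK output and T-cell receptor signaling genes in each vehicle array. Points are lines (red resistant, n = 4, blue sensitive, n = 3), short bars are group means and the dotted line is the level of a signal of 0. PIK3R5 and SPRY2 do not overlap (adjusted p = 0.0567 for both), PIK3CG does, and STAT4, DUSP6 and PIK3CD are highest in ALL-SIL.

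Most measured genes of oxidative phosphorylation and of ribosome biogenesis had a lower mean in the sensitive lines. In oxidative phosphorylation 42 of 52 measured genes had a negative difference (10735 of 19775 over all genes), with a median of -0.24 against -0.03. Without overlap, 9 (17.3%, against 8.36% of all genes) were lower and 0 higher (6.46% of all genes). The mean level of the list overlapped between the groups, at 10.76 to 11.21 in the resistant and 10.77 to 10.79 in the sensitive lines. None passed limma's test, and 7 of the 52 had an unadjusted p under 0.05 (14.6% of all genes did). Of the 9, 7 encode complex I subunits, among them NDUFA9, which read 10.09 in CCRF-CEM, 10.07 in HPB-ALL, 10.01 in Jurkat and 10.33 in Molt-4, against 8.97 in P12-ICHIKAWA, 9.43 in ALL-SIL and 9.12 in TALL-1 (-0.95 ± 0.14, adjusted p = 0.0875), NDUFS6 (-0.66 ± 0.13) and NDUFS1 (-0.59 ± 0.17). All 7 lines were bright for these genes. In ribosome biogenesis 43 of 52 genes had a negative difference (median -0.29), and 6 (11.5%, against 8.36%) were lower without overlap. Of the 52, 0 passed limma's test and 7 had an unadjusted p under 0.05 (14.6% of all genes did). Its mean level overlapped too, at 8.76 to 9.40 in the resistant and 8.76 to 8.93 in the sensitive lines. NOP2, a methyltransferase of ribosomal RNA, read 8.35 in CCRF-CEM, 8.31 in HPB-ALL, 9.01 in Jurkat and 9.0 in Molt-4, against 7.25 in P12-ICHIKAWA, 8.11 in ALL-SIL and 7.39 in TALL-1 (-1.08 ± 0.29, adjusted p = 0.206), and IMP4 (-0.57 ± 0.17) and GAR1 (-0.49 ± 0.15) were lower without overlap.

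MYC, which drives many of these genes, read 11.46 in CCRF-CEM, 11.11 in HPB-ALL, 11.14 in Jurkat and 10.79 in Molt-4, against 10.33 in P12-ICHIKAWA, 10.93 in ALL-SIL and 10.43 in TALL-1. ALL-SIL overlapped Molt-4, and the difference was -0.56 ± 0.21 (adjusted p = 0.304). In the Myc network (24 genes, median -0.25, 0 past limma's test, 4 with an unadjusted p under 0.05) the median was -0.011 without ALL-SIL. BCAT1, a branched-chain aminotransferase of that list, read 10.95 in CCRF-CEM, 10.27 in HPB-ALL, 10.07 in Jurkat and 9.97 in Molt-4, against 7.97 in P12-ICHIKAWA, 9.36 in ALL-SIL and 7.92 in TALL-1 (-1.90 ± 0.41, adjusted p = 0.149) with no overlap in all 4 of its probe sets. CCND2 was higher (0.95 ± 0.37) but dim.

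Glycolysis genes had differences of both signs. None of 22 genes passed limma's test, 6 had an unadjusted p under 0.05 and the median was -0.10. SLC2A3 (GLUT3), a glucose transporter, read 6.86 in CCRF-CEM, 5.97 in HPB-ALL, 6.58 in Jurkat and 6.16 in Molt-4, against 8.09 in P12-ICHIKAWA, 8.03 in ALL-SIL and 7.30 in TALL-1 (1.41 ± 0.29, adjusted p = 0.13) and was higher in all sensitive lines. LDHB, a lactate dehydrogenase subunit (-0.70 ± 0.16, adjusted p = 0.16), and TPI1, triosephosphate isomerase (-0.38 ± 0.13), were lower without overlap. In cholesterol synthesis no member of 21 was free of overlap, 0 passed limma's test, 1 had an unadjusted p under 0.05 and the median was 0.003. HMGCS1, an early enzyme of the pathway, read 7.99 in CCRF-CEM, 8.92 in HPB-ALL, 10.72 in Jurkat and 8.02 in Molt-4, against 9.28 in P12-ICHIKAWA, 9.82 in ALL-SIL and 8.57 in TALL-1, with Jurkat highest. FDPS (-0.49 ± 0.30), PMVK (-0.44 ± 0.18) and INSIG1 (0.88 ± 0.59) overlapped.

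**Figure D5:**
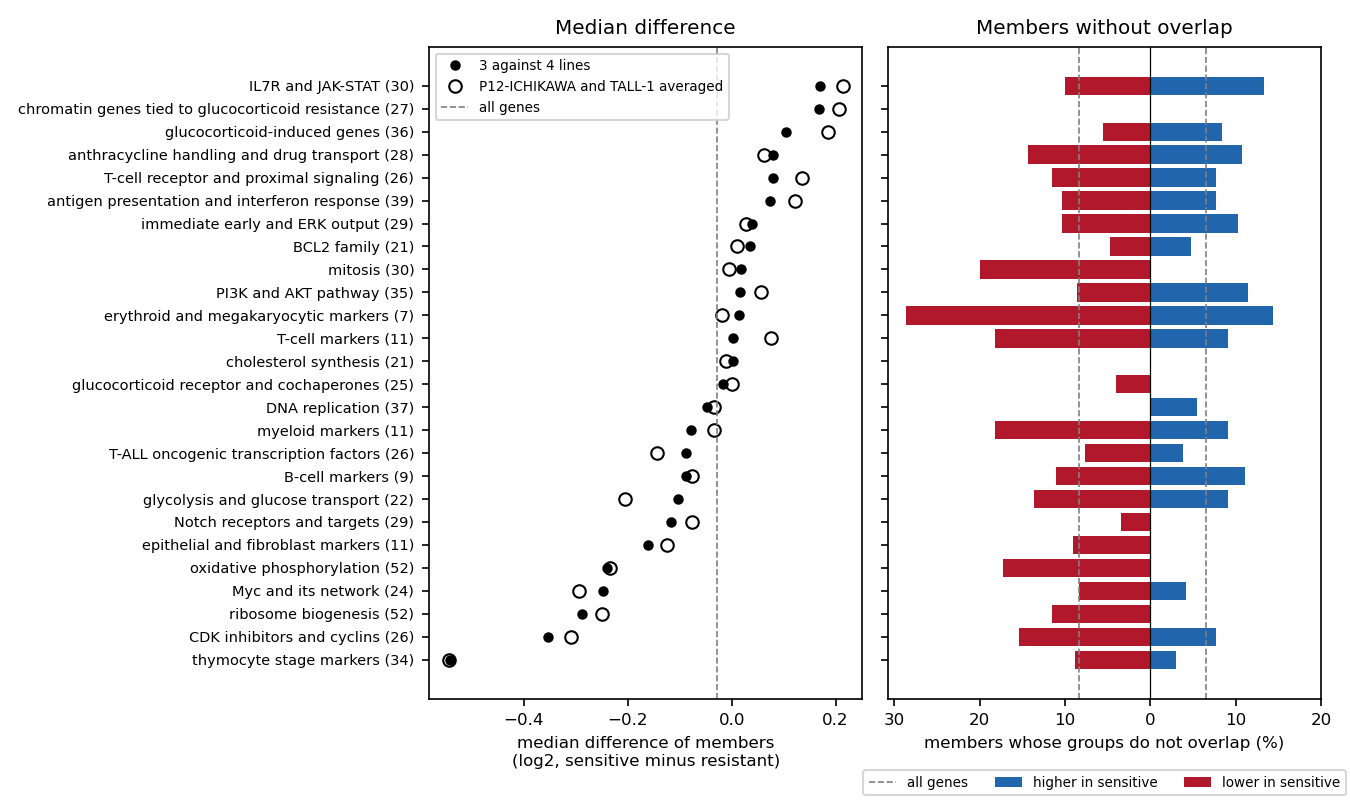
For each gene list (y axis, number of measured genes in brackets), the median difference of its members (left, log2, sensitive minus resistant) and the share whose groups do not overlap (right, %, blue higher and red lower in sensitive lines). Filled points use all 7 lines, open points have P12-ICHIKAWA and TALL-1 averaged, and dashed lines are all 19775 genes (median -0.03, 6.46% higher and 8.36% lower). Thymocyte stage markers have the lowest median (-0.54), and 17.3% of oxidative phosphorylation genes are lower and 0 higher.

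Cell cycle genes did not pass the test, and the groups did not overlap in some of them. RBL2 (p130), which represses cell cycle genes in resting cells, read 8.91 in CCRF-CEM, 8.73 in HPB-ALL, 8.49 in Jurkat and 9.11 in Molt-4, against 10.12 in P12-ICHIKAWA, 9.51 in ALL-SIL and 9.99 in TALL-1 and was higher in all sensitive lines (1.06 ± 0.20, adjusted p = 0.124). CCNE1, the cyclin of S-phase entry (-1.38 ± 0.37), and CDKN2D, an inhibitor of CDK4 and CDK6 (-0.84 ± 0.21), were lower without overlap. FOXM1, an activator of mitotic genes, read 8.87 in CCRF-CEM, 8.85 in HPB-ALL, 9.11 in Jurkat and 8.95 in Molt-4, against 7.67 in P12-ICHIKAWA, 8.46 in ALL-SIL and 7.56 in TALL-1 (-1.05 ± 0.23, adjusted p = 0.147), and its targets CCNB1 (-0.51 ± 0.15) and CCNB2 (-0.46 ± 0.12) were lower too. Of 30 mitosis genes 6 (20%, against 8.36% of all genes) were lower without overlap and 0 higher, and the median was 0.02. Of 37 DNA replication genes 2 (POLA1 and POLD1, 5.41%, against 6.46% of all genes) were higher without overlap and 0 lower, and MCM10 (-0.69 ± 0.26) and CDC45 (-0.35 ± 0.15) overlapped. None of the 26 genes of the CDK and cyclin list (median -0.35), the 30 of mitosis and the 37 of replication passed limma's test, and 7, 4 and 3 had an unadjusted p under 0.05.

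By stage, thymocyte markers had the lowest median of all lists (34 genes, -0.54, 0 past limma's test, 3 with an unadjusted p under 0.05). Without overlap, 3 were lower (8.82%, near the 8.36% of all genes) and 1 higher (2.94%, against 6.46%). The mean level of the list overlapped between the groups, at 7.452 to 8.871 in the resistant and 7.105 to 7.718 in the sensitive lines. SATB1, a chromatin organizer of thymocytes, read 10.25 in CCRF-CEM, 10.66 in HPB-ALL, 10.52 in Jurkat and 9.87 in Molt-4, against 8.99 in P12-ICHIKAWA, 8.46 in ALL-SIL and 9.21 in TALL-1 and was lower in all sensitive lines (-1.44 ± 0.25, adjusted p = 0.105). RAG2, a subunit of the recombinase of receptor genes, read 6.65 in CCRF-CEM, 5.47 in HPB-ALL, 6.19 in Jurkat and 8.51 in Molt-4, against 4.42 in P12-ICHIKAWA, 4.28 in ALL-SIL and 4.94 in TALL-1 (-2.16 ± 0.68, adjusted p = 0.254). RAG1, its partner, named after its values were seen, read 8.55 in CCRF-CEM, 5.54 in HPB-ALL, 6.09 in Jurkat and 11.36 in Molt-4, against 5.19 in P12-ICHIKAWA, 4.0 in ALL-SIL and 5.47 in TALL-1. It was bright in Molt-4 and CCRF-CEM, while HPB-ALL was within 0.10 log2 units of TALL-1. BCL11B, needed for T-cell commitment, was higher in all sensitive lines on its brightest probe set (0.73 ± 0.18, adjusted p = 0.188). Of its 3 probe sets 1 had the opposite sign, and averaging them gave a difference of 0.097 (limma, adjusted p = 0.864). Among 26 T-cell receptor signaling genes (median 0.08, 0 past limma's test, 6 with an unadjusted p under 0.05), THEMIS, a regulator of thymocyte selection, read 7.84 in CCRF-CEM, 7.14 in HPB-ALL, 8.99 in Jurkat and 9.0 in Molt-4, against 10.14 in P12-ICHIKAWA, 10.25 in ALL-SIL and 9.71 in TALL-1 (1.79 ± 0.49, adjusted p = 0.214). TRAT1 (-1.03 ± 0.35) and the kinase ZAP70 (-0.97 ± 0.34) were lower without overlap, and CD5, an inhibitory receptor (0.94 ± 0.32), overlapped.

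The oncogenic transcription factors that define T-ALL subtypes were on in 1 or a few lines each. TAL1 read 7.91 in CCRF-CEM, 4.16 in HPB-ALL, 10.01 in Jurkat and 9.33 in Molt-4, against 4.26 in P12-ICHIKAWA, 4.11 in ALL-SIL and 4.07 in TALL-1. It was on in CCRF-CEM, Jurkat and Molt-4 and near no signal in HPB-ALL and all sensitive lines, so that the groups overlapped (-3.71 ± 1.33, adjusted p = 0.294). TLX3 was on in HPB-ALL alone (10.82, against 4.56 to 4.80 elsewhere) and TLX1 in ALL-SIL alone (9.31, against 4.0 to 4.98). LMO2, a partner of TAL1, read 8.10 in CCRF-CEM, 4.58 in HPB-ALL, 4.20 in Jurkat and 6.65 in Molt-4, against 8.60 in P12-ICHIKAWA, 4.24 in ALL-SIL and 8.38 in TALL-1. LYL1 read 7.87 in CCRF-CEM, 6.37 in HPB-ALL, 5.54 in Jurkat and 4.86 in Molt-4, against 5.32 in P12-ICHIKAWA, 6.33 in ALL-SIL and 4.53 in TALL-1. None of the 26 measured genes passed limma's test, 3 had an unadjusted p under 0.05, and the median was -0.09. TCF12, a partner of TAL1, overlapped (-0.92 ± 0.31), and LMO1 was under a signal of 50 in all lines.

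Of 28 genes that handle anthracyclines or transport drugs, none passed limma's test and 4 had an unadjusted p under 0.05 (median 0.08). ABCC10, an efflux pump, read 6.48 in CCRF-CEM, 6.33 in HPB-ALL, 6.51 in Jurkat and 6.62 in Molt-4, against 7.24 in P12-ICHIKAWA, 7.05 in ALL-SIL and 7.22 in TALL-1 and was higher in all sensitive lines (0.68 ± 0.11, adjusted p = 0.0875). ABCB1 (P-glycoprotein), the best known pump for anthracyclines and a carrier of glucocorticoids, was under a signal of 50 in all lines and differed by 0.30 ± 0.12. CBR3, a carbonyl reductase, was as dim (-1.09 ± 0.29). Among 27 chromatin genes tied to glucocorticoid resistance no member was free of overlap, 0 passed limma's test and 1 had an unadjusted p under 0.05. The median was 0.17, and EZH2 (-0.36 ± 0.16), KDM5A (-0.40 ± 0.13) and HDAC4 (-0.86 ± 0.41) were its members of smallest p.

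Of 39 genes of antigen presentation and interferon response none passed limma's test and 8 had an unadjusted p under 0.05 (median 0.07). NLRC5, the activator of MHC class I genes, read 5.07 in CCRF-CEM, 6.22 in HPB-ALL, 6.04 in Jurkat and 5.71 in Molt-4, against 7.52 in P12-ICHIKAWA, 6.60 in ALL-SIL and 7.53 in TALL-1 (1.46 ± 0.35, adjusted p = 0.178), and HLA-E, a class I molecule, read 9.31 in CCRF-CEM, 9.55 in HPB-ALL, 8.49 in Jurkat and 8.59 in Molt-4, against 9.96 in P12-ICHIKAWA, 10.61 in ALL-SIL and 9.69 in TALL-1 (1.10 ± 0.34, adjusted p = 0.251). Both were higher in all sensitive lines, whereas TAP2, of the peptide transporter, was lower (-0.38 ± 0.13, adjusted p = 0.289). In the whole list 3 members were higher without overlap (7.69%, against 6.46% of all genes) and 4 lower (10.3%, against 8.36%).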

How the data were processed

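RNA of 7 established T-ALL lines was hybridized to HG-U133 Plus 2.0 arrays, with 1 array per line and treatment. The authors deposited a linear signal intensity per probe set, summarized with PLIER in Affymetrix Expression Console 1.3.1.187 by the submitters' processing notes. The methods describe the addition of 16 and a log2 step that the deposited values do not carry, so log2(intensity + 16) was taken here. The array number limits precision, and p-values measure the spread between lines, array noise included.

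Of 54675 probe sets, 62 were controls, 41091 named 1 gene, 1801 several and 11721 none in the platform annotation. The brightest probe set of a single gene over the 7 vehicle arrays stood for each of 19775 genes, with no filter on dim genes. Groups were compared with limma 3.58.1 (lmFit, eBayes) in R 4.3.3, tested on simulated data, with Benjamini-Hochberg adjustment over all genes. A gene passed at an adjusted p under 0.05.

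The members and the 26 gene lists were chosen with earlier results of these data known, and some lists share genes. Named genes were the 15 largest differences per direction among genes past the test without overlap, filled up by smallest p among non-overlapping genes above a signal of 50 on 3 or more arrays, the 3 genes of smallest p per list, the list members past the test, and set pathway genes, of which 3 are not reported here. Genes of the sex chromosomes that depend on sex were left out. Groups came from drug response, since the labels name only lines and treatments. Offsets of 4 and 64, quantile and median scaling, a signal filter, other probe set rules, averaging of P12-ICHIKAWA and TALL-1, each line left out, the AS605240 arrays, both arrays averaged and a trended eBayes fit were tried.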

Additional observations from a re-analysis of the deposited data

Results flagged for a closer look

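In the resistant group of 4 lines, 6 of the 123 genes examined had 1 line far from the others by Dixon's criterion, which chance meets in about 1 group in 20. TLX3 was high in HPB-ALL, at 10.8 against 4.56 to 4.8 in the other resistant lines. COL1A1, a collagen gene of the fibroblast list, was low in HPB-ALL, at 6.58 against 7.3 to 7.36. DDIT4 was high in CCRF-CEM, at 10.9 against 9.97 to 10.1, and NFKBID was low there, at 5.62 against 5.82 to 5.83. SH3RF1 was high in Molt-4, at 6.58 against 6.11 to 6.18, and KDM5A was low there, at 7.86 against 8.1 to 8.13. The sensitive group of 3 lines was not examined in this way.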

How the results depend on the processing

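All 24 genes past the test kept their direction under every gene-level alternative in which they were tested. Their groups did not overlap, so several of these alternatives could not turn a sign. These were other offsets, the signal filter, the trended eBayes fit, a line left out, and P12-ICHIKAWA and TALL-1 averaged. The number past the test moved widely. Against 4 higher and 20 lower genes, the counts were 5 and 36 with an offset of 4, 5 and 11 with an offset of 64, 9 and 26 after quantile normalization, 9 and 21 with median centring, 9 and 29 where only genes above 50 on 3 or more arrays were kept, 2 and 18 when a gene was the mean of its probe sets, 8 and 21 on the AS605240 arrays, 9 and 31 with both arrays of a line averaged, 12 and 33 with a trended and robust eBayes fit, and 14 and 49 over 42892 probe sets. With P12-ICHIKAWA and TALL-1 averaged they were 1 and 2, on the vehicle arrays and, in an alternative chosen after seeing the data, on the AS605240 arrays. Leaving out 1 line gave 1 to 94 higher and 2 to 163 lower. All 24 genes still passed without HPB-ALL, and 23 without ALL-SIL, 11 without Molt-4, 8 without CCRF-CEM, 8 without Jurkat, 3 without P12-ICHIKAWA and 3 without TALL-1. In some of these settings fewer lines or genes entered, and the causes of the changes were not tested.

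The 176 higher and 331 lower genes past 2-fold without overlap became 102 and 135 with an offset of 64, 99 and 235 with probe sets averaged, and 352 and 686 over all probe sets, and ranged from 186 to 399 and from 361 to 620 with 1 line left out. Signs turned with probe sets averaged for COL1A1 (0.030), MCL1 (-0.19), BCL2L11 (0.017), PIK3CB (-0.038), PIK3CG (-0.345) and HMGCS1 (-0.21). They turned on the AS605240 arrays for TSC22D3 (0.27, and 0.094 with the pair averaged) and, with the pair averaged, for NOTCH1 (0.115). With 1 line left out, TSC22D3 ranged from -1.18 to 0.347, MCL1 from -0.0751 to 0.193, PIK3CG from -0.0837 to 0.303, NOTCH1 from -0.852 to 0.0191, TLX1 from -0.309 to 2.34 and TLX3 from -2.06 to 0.022. None of these genes passed the test. Of the 26 list medians, 10 moved by more than the spread between lines under at least 1 alternative. No paired analysis was possible because each line lies in 1 group only. Dim genes are bounded by the offset, so their differences are compressed.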

Other observations

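The interferon-induced membrane proteins IFITM2 and IFITM3 hinder virus entry and were picked after their values were seen. IFITM2 read 11.25 in CCRF-CEM, 5.79 in HPB-ALL, 9.17 in Jurkat and 4.99 in Molt-4, against 11.22 in P12-ICHIKAWA, 12.66 in ALL-SIL and 11.20 in TALL-1. IFITM3 read 10.65, 6.5, 8.74 and 5.45 in the resistant lines in the same order, against 10.65, 12.63 and 10.58. CCRF-CEM lay with the sensitive lines in both genes, and neither passed the test (limma, adjusted p = 0.322 and 0.304). LCK, the kinase that starts receptor signaling, read 11.05 to 11.60 in the sensitive lines, while TRBC1 was low in ALL-SIL (9.09, against 12.14 to 12.54 in the other 6 lines).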
